A study of Penicillium oxalicum with 72 samples.

Results

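Among 283 transcription factor (TF) genes of Penicillium oxalicum that the study listed as differentially expressed, 66 had their highest mean transcript level on a cellulose substrate. The study took this TF block from its comparisons of each carbon source with medium without one, made on these same libraries. The block therefore does not hold every TF gene of the genome. In all, 9821 genes were listed in at least 1 library. Levels were in FPKM, which divides the fragments of a gene by its length and by the size of the library. The mean FPKM of the 3 libraries was taken for each of 24 conditions, with a missing value counted as 0. A gene was kept if its highest condition was on Avicel (AV, microcrystalline cellulose), methyl cellulose (MC) or 2-hydroxyethyl cellulose (HEC) and that mean was at least 1 FPKM, and 15 genes listed by name, among them the regulators ClrB and XlnR, were left out. Of the other TF genes outside those 15, 57 were highest on wheat bran (WB), 57 on glucose (GLU) and 86 in medium without a carbon source (NC), and 2 stayed under the minimum. The study's calls, the highest level and its substrate therefore chose these genes. The levels on AV, MC and HEC are given as a description without a test.

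All libraries came from mycelium of 1 strain, ΔPoxKu70, a mutant that lacks the DNA-repair gene PoxKu70 and serves as the parental strain for gene deletion, so the deletion was shared by every group. Hyphae grown on GLU were moved to basal medium with AV, MC, HEC, WB or GLU, or to NC, and total RNA was sequenced after 4, 12, 24 and 48 h, giving 72 libraries with 3 in each condition. AV is insoluble, MC and HEC are soluble cellulose ethers, and WB is a mixed plant material that also holds hemicellulose and starch.

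Filamentous fungi secrete cellulases and xylanases at a low basal level, and far more while a suitable inducer is present and readily used sugars are scarce. Regulators of the fungal Zn2Cys6 (zinc binuclear cluster) class, such as the activator ClrB and XlnR, control transcription of the enzyme genes. In P. oxalicum, the study states, XlnR raises xylanase production but lowers cellulase production. The C2H2 zinc finger protein CreA represses the enzyme genes when glucose is plentiful. Most TF genes of such a genome have no assigned function, and a TF can act without any change of its own transcript level.

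Several libraries were checked before the members were read. The short names of the 12 HEC libraries give HEC while their longer wording gives methyl cellulose. They were closer to one another (lowest correlation of log2 levels within HEC at one time 0.979) than to MC (highest 0.974), so they were not copies of the MC libraries, and leaving out the HEC conditions kept 60 members. Replicate 3 of NC at 24 h is worded as 4 h but named 24 h, and it was nearest to a library of NC at 24 h. Of all 72 libraries, 71 were nearest to a library of their own condition. The exception was AV at 12 h replicate 1, which lay nearest to an HEC library at 12 h, and the levels and counts that it touches most are given with and without it. Summed FPKM ranged between 924393 and 1255910, and each library listed 9243 to 9568 genes. The number of reads behind a value is not known from FPKM.

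By DNA-binding class, the 66 members held 29 Zn2Cys6 genes of 143 in the TF block and 14 C2H2 zinc finger genes of 35. Winged helix proteins followed with 5 of 14, then bZIP (basic leucine zipper) with 4 of 17. GATA zinc finger genes numbered 2 of 3, HMG (high mobility group box) genes 2 of 4 and homeobox genes 2 of 9, with 1 Myb gene, 1 centromere protein B-like gene and 6 others. Zn2Cys6 genes thus made up 43.9% of the members, against 50.5% of the TF block, and C2H2 genes made up 21.2%, against 12.4%. Of the 29 members in the Zn2Cys6 class, 25 carry the Zn2Cys6 DNA-binding domain itself, as 113 genes of the block do, and 4 (POX01377, POX04111, POX08367 and POX08944) carry only the fungal TF domain that often lies beside it. Some members carry domains that go with other functions. Of the 5 winged helix members, 4 (POX01135, POX04227, POX08702 and POX09469) also carry an O-methyltransferase family 2 domain, in which a winged helix fold is part of an enzyme. The fifth, POX02035, carries the domain of Rpc34, a subunit of RNA polymerase III in yeast. POX01725 carries the DHHC domain of protein palmitoyltransferases.

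The share of TF genes that were highest on cellulose, 24.8% of the 266 outside the removed list that reached the minimum, stood beside 24.6% of the 8898 genes whose levels averaged 1 FPKM or more across all libraries. The TF genes had been listed as differentially expressed and the 8898 genes had not, so these shares are not like for like. AV gave the highest condition of 38 members, MC of 17 and HEC of 11. On AV the highest means fell at 4 h for 6 members, at 12 h for 6, at 24 h for 16 and at 48 h for 10. On MC the numbers were 4, 1, 6 and 6. On HEC 9 of the 11 peaked at 48 h, and POX06195 and POX01725 peaked at 4 h and 12 h. The lowest condition was on WB for 33 members, 27 of them at 4 h, and on GLU for 17.

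**Figure D1:**
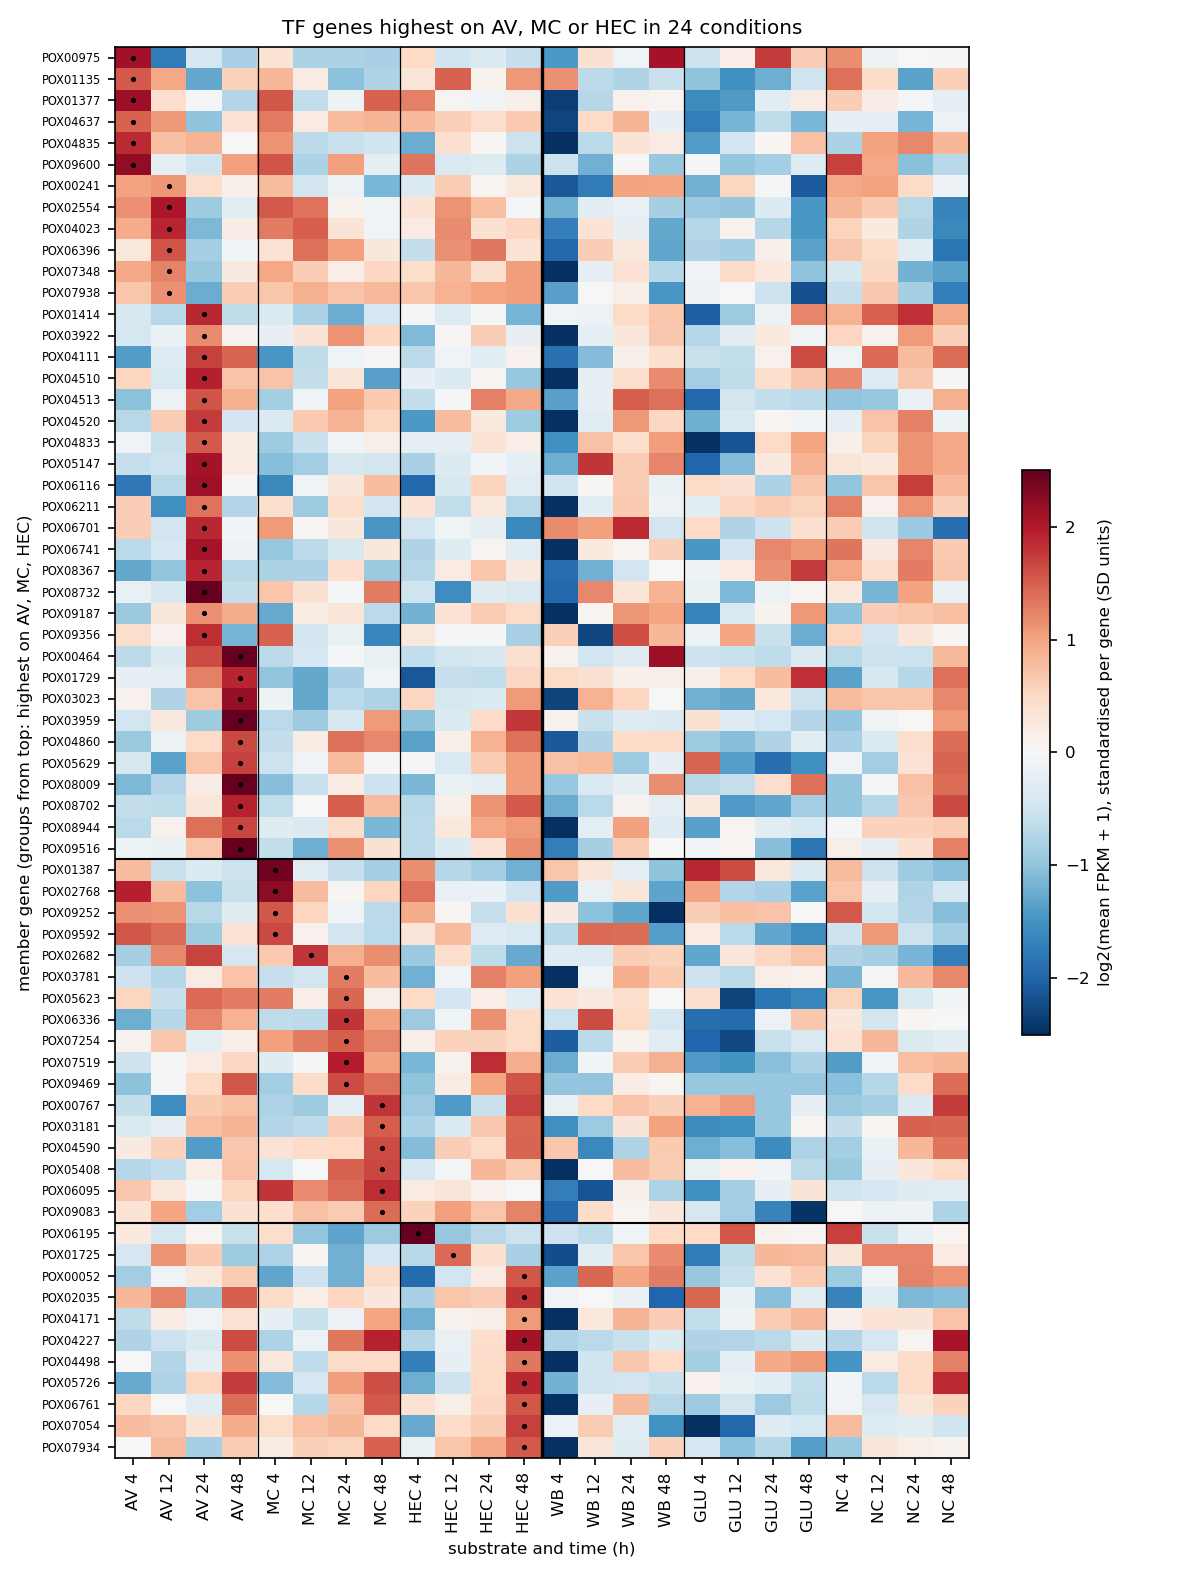
Level of the 66 members (rows, grouped by the substrate of the highest mean) in the 24 conditions (columns), as log2(mean FPKM + 1) standardised per gene in SD units, with a dot on the highest condition of each member. The AV group peaked most often at 24 h (16 of 38), and WB at 4 h was the lowest condition of 27 of the 66.

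Most members led by little. The ratio of the highest mean to the highest mean on WB, GLU or NC had a median of 1.20 and ranged between 1.00 and 5.38, where all 2188 genes highest on cellulose also had a median of 1.20. Of the members, 5 reached a ratio of 2, 19 reached 1.5, and 23 stayed below 1.1. All genes highest on cellulose reached 2 in 10.8% of cases. The 3 libraries of the highest condition lay above all 36 WB, GLU and NC libraries for 27 of the 66 members, against 36.3% of all genes highest on cellulose. The nearest other condition was on NC for 38 members, on WB for 20 and on GLU for 8. Taking the replicates one at a time, 41 members peaked on a cellulose substrate in each of the 3 and 19 in 2, and 17 peaked in the same condition in all 3.

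**Figure D2:**
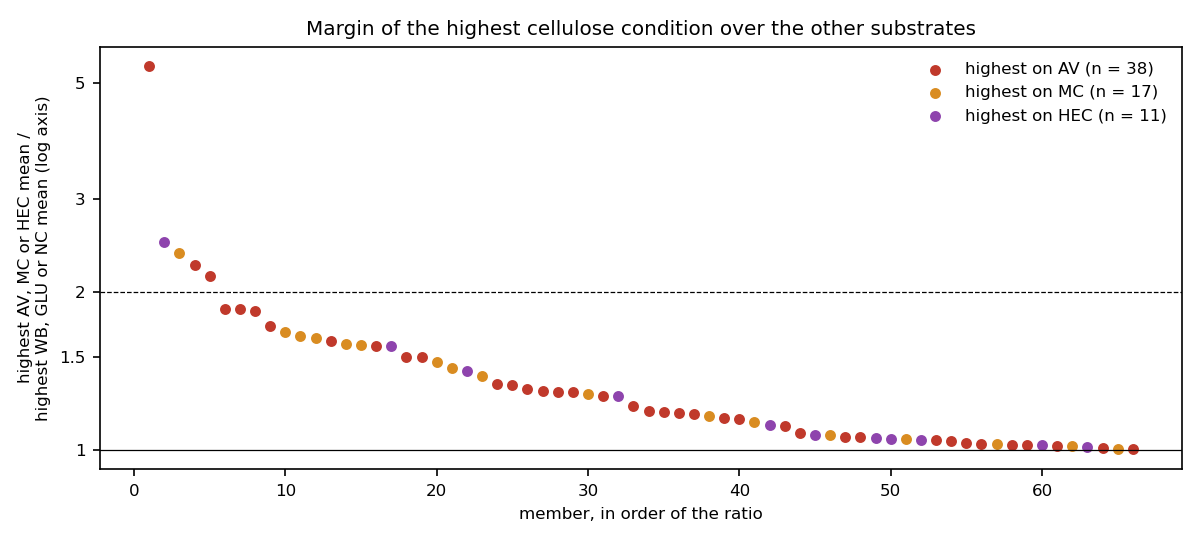
Ratio of each member's highest mean on AV, MC or HEC to its highest mean on WB, GLU or NC (vertical log axis), in order of the ratio, with 0.1 FPKM added to both means. The ratio passed 2 (dashed line) for 5 members and stayed below 1.1 for 23.

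Just inside the minimum lay POX09600, a MADS-box gene with 4.72, 2.17 and 1.97 FPKM on AV at 4 h (mean 2.95), and POX06336, a C2H2 gene with a mean of 3.86 FPKM on MC at 24 h. No TF gene that was highest on AV, MC or HEC fell just outside it. The highest levels were those of POX06396, at a mean of 1100.06 FPKM, and POX07938, at 934.39 FPKM.

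Among the members highest on AV, the Zn2Cys6 gene POX03959 had the widest margin. On AV at 48 h it had 18.9, 15.7 and 16.72 FPKM, against 6.38, 0.78 and 2.13 FPKM on NC at 48 h, its next highest substrate outside cellulose. The other cellulose substrates stayed low at 48 h, with 4.12, 2.24 and 2.99 FPKM on MC and 5.56, 3.99 and 6.92 FPKM on HEC. The highest of the other libraries at 48 h thus had 6.92 FPKM, well under the 3 on AV. The C2H2 gene POX09516 had a similar course at a higher level, with 136.0, 126.7 and 139.0 FPKM on AV at 48 h, against 75.23, 45.99 and 57.16 FPKM on NC at 48 h, a ratio of 2.25. POX08009, annotated as the mating-type protein MAT alpha 1, a regulator of mating identity in fungi, reached only 4.47, 3.89 and 4.67 FPKM on AV at 48 h, against 1.4, 3.14 and 2.34 FPKM on NC at 48 h. POX01377, one of those with the fungal TF domain alone, was already highest at 4 h, with 30.6, 29.59 and 22.19 FPKM on AV, against 15.88, 15.67 and 12.79 FPKM on NC at 4 h, and these libraries did not overlap.

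POX06396, a C2H2 gene, and POX07938, a Zn2Cys6 gene, peaked on AV at 12 h, where the doubtful library lies. POX06396 had 580.87, 1134.77 and 1584.55 FPKM there, against 722.29, 593.17 and 224.31 FPKM on NC at 4 h, so that the groups overlapped. Its ratio was 2.14, and 2.65 without replicate 1. POX07938 had 453.45, 981.35 and 1368.37 FPKM, against 412.49, 617.35 and 749.47 FPKM on NC at 12 h, with a ratio of 1.58, and 1.98 without replicate 1. Replicate 1 was the lowest of the 3 in 5 of the 6 members with this peak. POX07348, whose bZIP carries the redox domain of Yap1/PAP1, oxidative stress regulators of yeasts, moved in the same way from a ratio of 1.29 to 1.51 without that replicate. For POX02554 (Zn2Cys6) the ratio was 1.61, and 1.88 without replicate 1, and for POX04023 (C2H2) it was 1.72, where the mean on AV at 12 h was 292.6 FPKM, and 340.04 FPKM without replicate 1. POX00241 (C2H2) was the sixth, at 18.01, 21.71 and 17.02 FPKM.

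Among the members highest on MC, the Zn2Cys6 gene POX09083 led with 98.1, 178.68 and 148.27 FPKM at 48 h, against 45.2, 57.78 and 76.35 FPKM on WB at 12 h. All 3 of its MC libraries at 48 h lay above every WB, GLU and NC library. POX05623, a C2H2 gene, had 15.61, 14.17 and 13.81 FPKM on MC at 24 h, against 8.2, 7.09 and 10.55 FPKM on NC at 4 h, and AV at 24 h was close behind with 14.19, 14.28 and 14.58 FPKM. POX02768 (C2H2) peaked early on MC, with 169.03, 219.27 and 122.21 FPKM at 4 h, against 115.75, 105.7 and 87.69 FPKM on GLU at 4 h. POX06095 (Zn2Cys6) had 28.14, 23.38 and 22.63 FPKM on MC at 48 h, against 15.72, 14.95 and 15.77 FPKM on GLU at 48 h.

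POX07254, which encodes CreA, the repressor that mediates carbon catabolite repression, was also a member. Its MC libraries had 606.1, 569.49 and 614.64 FPKM at 4 h, 658.16, 710.85 and 596.78 FPKM at 12 h, 791.46, 640.35 and 700.69 FPKM at 24 h and 591.41, 710.24 and 604.3 FPKM at 48 h. At 4, 24 and 48 h the 3 MC libraries lay above all 15 other libraries of that time, and at 12 h they overlapped NC, whose highest library had 618.1 FPKM. The mean of POX07254 on GLU was 193 FPKM at 4 h, 174 FPKM at 12 h, 329 FPKM at 24 h and 352 FPKM at 48 h, so that the level of this repressor's transcript was lowest on GLU and WB early after the transfer.

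Among the members highest on HEC, the homeobox gene POX06195, which also carries a C2H2 finger, showed a single early peak. It had 107.5, 113.83 and 162.72 FPKM on HEC at 4 h, against 56.96, 67.27 and 30.06 FPKM on NC at 4 h, while the AV and MC libraries at 4 h lay between 17.98 and 26.26 FPKM. The other leading HEC members peaked at 48 h with smaller margins. POX07934, which joins a PAS domain to a GATA finger as the white collar proteins of the Neurospora light response do, had 127.62, 198.57 and 163.41 FPKM on HEC at 48 h, against 68.23, 125.91 and 116.7 FPKM on WB at 48 h. POX07054 (C2H2) had 18.87, 31.31 and 25.57 FPKM on HEC at 48 h, against 23.41, 20.19 and 9.87 FPKM on NC at 4 h. For POX06761 (Zn2Cys6) and POX02035, the Rpc34-like gene, the ratios were 1.26 and 1.11.

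**Figure D3:**
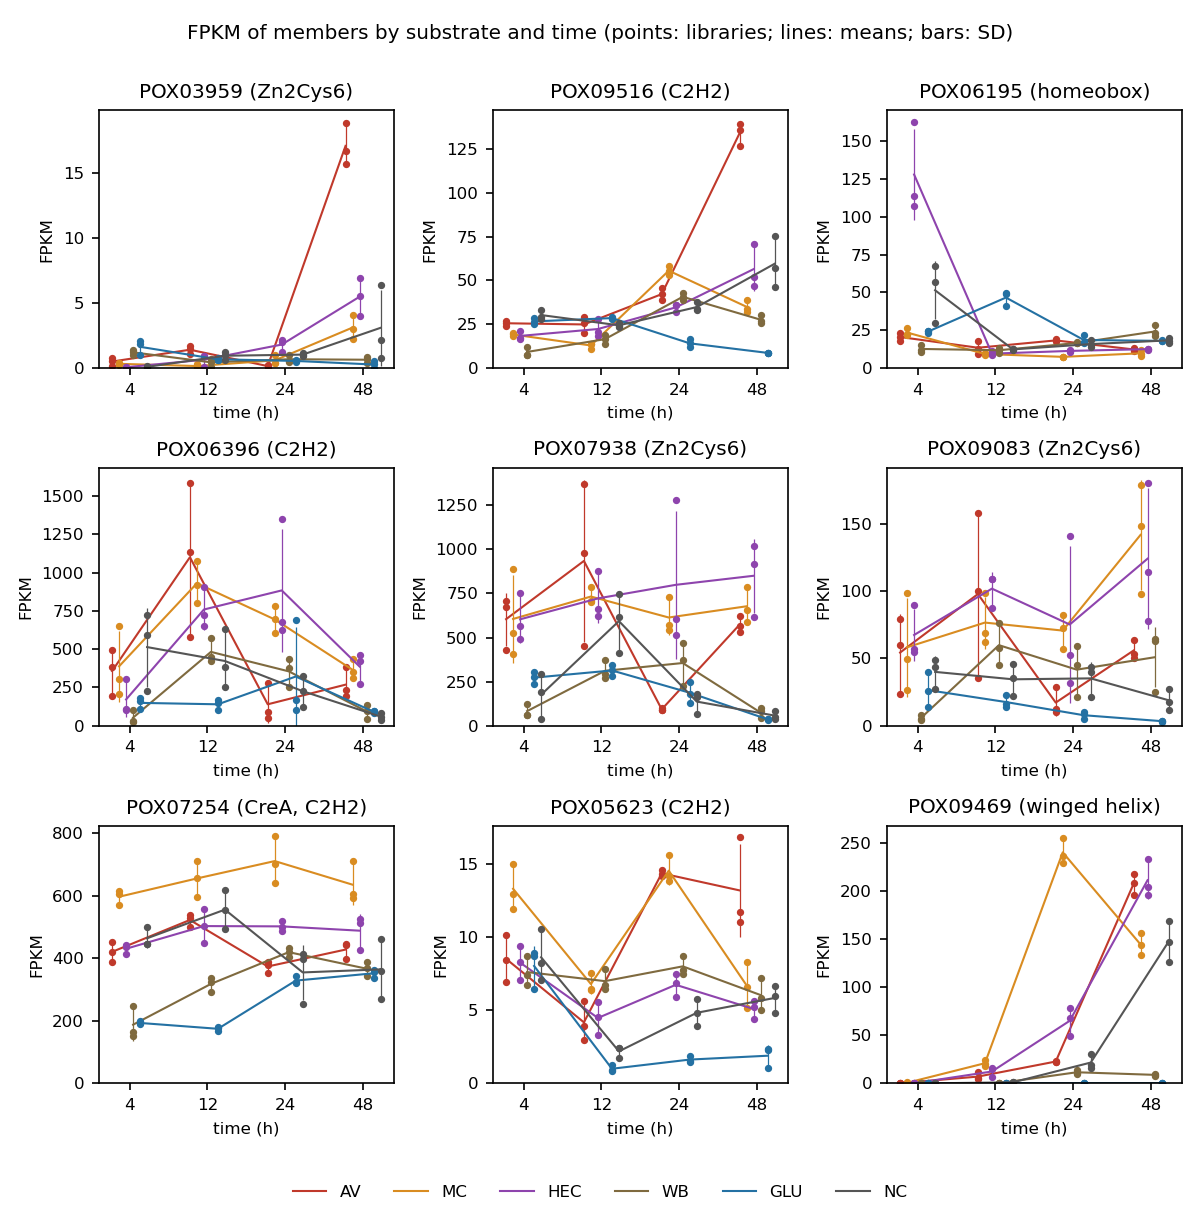
FPKM of 9 members at 4, 12, 24 and 48 h on the 6 media, with points for libraries, lines for means and bars for SD (n = 3). POX03959 and POX09516 stood out on AV at 48 h, POX06195 on HEC at 4 h, POX07254 (CreA) on MC at most times, and POX07938 was high on all cellulose media except AV at 24 h.

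A stricter view asks whether all 9 AV, MC and HEC libraries of one time lay above all 9 WB, GLU and NC libraries. That held for 3 members at 4 h, 2 at 12 h, none at 24 h and 6 at 48 h, beside 1.20%, 1.48%, 0.348% and 3.23% of all genes. Without AV replicate 1 the 12 h count was 5, beside 1.99% of all genes. POX07938 met it at 4 h, with 403.89 to 886.24 FPKM (median 562.99) on the cellulose media, against 39.14 to 301.81 FPKM (median 192.27). It met it again at 48 h, with 529.42 to 1017.96 FPKM (median 623.05), against 32.75 to 99.31 FPKM (median 42.56), a ratio of means of 12.5. On AV at 24 h it had only 89.07, 89.98 and 98.9 FPKM. POX04637 (Zn2Cys6) met it at 4 h, with 29.79 to 49.61 FPKM (median 41.18), against 2.79 to 18.59 FPKM (median 5.81). The others at 48 h were POX06396, with a ratio of means of 4.18, POX07054 at 2.08, POX04023 at 1.94, POX07348 at 1.75 and POX06761 at 1.71.

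A highest mean on a cellulose medium, often by a small margin, did not keep a member high on these media at all times. At 48 h, 6 members had all 9 cellulose libraries below the 9 others, beside 15.1% of all genes, and at 4, 12 and 24 h no member did, beside 5.89%, 4.82% and 1.16%. POX00975, a Zn2Cys6 gene highest on AV at 4 h, had 17.48 to 24.29 FPKM (median 20.13) on the cellulose media at 48 h, against 27.78 to 117.47 FPKM (median 44.82). POX06195 was among them too, with 7.86 to 13.11 FPKM (median 12) at 48 h, against 16.66 to 28.18 FPKM (median 18.33). The remaining 4 were POX01414, POX01725, POX04833 and POX05147. Their highest means exceeded the highest on WB, GLU or NC by ratios of only 1.02, 1.07, 1.33 and 1.11. The ratio was 2.49 for POX06195 but 1.01 for POX00975, whose AV libraries at 4 h (94.87, 79.95 and 144.86 FPKM) overlapped those on WB at 48 h.

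Against NC of the same time, few members differed on the cellulose media by 2-fold on the log2(FPKM + 1) scale, which understates differences of weakly expressed genes. These comparisons were used by the choice of the members and carry no test. Of the 65 members that passed the mean level of 1 FPKM (all except the HMG gene POX00464), AV had 5 higher and 4 lower at 4 h, 5 and 3 at 12 h, 5 and 2 at 24 h and 8 and 0 at 48 h, where all genes had 4.29% and 5.23%, 3.34% and 7.29%, 4.14% and 6.36%, and 6.00% and 9.00%. Without AV replicate 1 the counts at 12 h were 9 and 4. MC had 5 higher and 3 lower at 4 h, 5 and 4 at 12 h, 9 and 6 at 24 h and 4 and 4 at 48 h, where all genes had 5.03% and 8.24%, 4.48% and 9.55%, 5.95% and 18.2%, and 4.35% and 14.6%. HEC had 2 higher and 5 lower at 4 h, 3 and 0 at 12 h, 5 and 1 at 24 h and 7 and 1 at 48 h, where all genes had 2.93% and 7.06%, 2.58% and 1.60%, 3.50% and 4.69%, and 5.01% and 3.59%. Single replicate numbers moved some of these counts, which became 4 and 0 on AV at 12 h without replicate 3, 7 and 6 on MC at 48 h without replicate 3, and 11 and 3 on HEC at 48 h without replicate 1.

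The balance of these counts depended on how the libraries were scaled. Rescaling each library by the median of its ratios to the average library moved the median difference of all genes by between −0.47 and 0.39 on the log2 scale across the comparisons. The split of members then became 8 higher and 1 lower on AV at 4 h and 9 and 0 at 12 h, where all genes under the same scaling had 5.62% and 3.08%, and 7.43% and 1.27%. With replicate 1 also left out, AV at 12 h had 15 and 2, where all genes had 11.3% and 2.84%. On MC it became 10 and 1 at 4 h, 9 and 1 at 12 h, 21 and 1 at 24 h and 14 and 1 at 48 h, where all genes had 6.91% and 5.23%, 8.10% and 4.08%, 10.4% and 8.33%, and 7.34% and 7.05%. On HEC it became 4 and 2 at 4 h, 9 and 0 at 24 h and 11 and 0 at 48 h, where all genes had 4.99% and 2.73%, 5.36% and 1.97%, and 6.53% and 1.82%.

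The comparisons of WB and GLU with NC did not enter the choice by highest level, although the members' levels there are bounded by the cellulose peak. They did enter the study's list of differentially expressed TF genes, from which the members and the other TF genes come. Counts of called TF genes can be raised by that choice, so setting them beside all genes is a description. These comparisons address how the same genes responded to a complex plant substrate and to a repressing sugar. Calls required an unadjusted p no higher than 0.05 together with a 2-fold difference, with limma fitted on the 8898 genes, and every call among the members also had a Benjamini-Hochberg adjusted p of at most 0.05. The WB and GLU comparisons share their NC libraries. Of the 65 members, POX06095 and POX09600 were called in none of the 11 comparisons tested here.

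On WB at 4 h, 33 of the 65 members were lower than on NC and 2 were higher, beside 21.7% lower and 11.9% higher among all genes. The 209 other TF genes tested, from the same list of differentially expressed genes, gave 52.2% lower and 6.22% higher. The early fall on WB was thus not particular to the members, while all genes highest on cellulose, not chosen from that list, gave 24.5% lower. The median difference of the members was −1.01, against −0.17 over all genes, and after rescaling 30 members were lower, beside 18.1% of all genes. By class, 11 of 14 C2H2 members fell, also after rescaling, as did 14 of 29 Zn2Cys6 members (11 after rescaling), both GATA and both homeobox members. The 5 winged helix members had a median difference of −0.08. Among them, POX04227 and POX09469 had means of only 0.0733 and 0.0533 FPKM on NC at 4 h, so they had no room to fall.

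POX06396 had the largest fall, to 28.14, 26.96 and 102.74 FPKM on WB at 4 h, against 722.29, 593.17 and 224.31 FPKM on NC (log2 difference −3.39 ± 0.59 SE, limma adjusted p = 0.00145). POX00241 had 1.45, 1.15 and 1.56 FPKM on WB, against 16.63, 18.89 and 16.53 FPKM on NC (−2.94 ± 0.14, limma adjusted p = 3.22e-06). Both were separated in all libraries. CreA (POX07254) had 164.44, 150.59 and 247.67 FPKM on WB, against 446.69, 446.73 and 498.5 FPKM on NC (−1.33 ± 0.20, limma adjusted p = 6.14e-04). POX04171, related to VID21, a subunit of the NuA4 histone acetyltransferase in yeast, had 9.55, 9.15 and 15.07 FPKM on WB, against 30.8, 26.25 and 26.56 FPKM on NC (−1.26 ± 0.20, limma adjusted p = 9.62e-04). The 2 that rose were POX04590 (Zn2Cys6), with 62.33, 61.53 and 61.78 FPKM on WB, against 29.34, 30.99 and 20.02 FPKM on NC, and POX03959, at 1.36, 1 and 1.27 FPKM on WB, against 0, 0.18 and 0.09 FPKM on NC. The rise of POX03959 lay at the 2-fold limit (1.02) and went under it without WB replicate 1 (0.97), WB replicate 3 (1.00) or NC replicate 1 (0.96).

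From 12 h on, fewer members differed between WB and NC. At 12 h 2 were higher and 6 lower, beside 6.93% and 10.1% of all genes, and after rescaling 3 and 5, beside 7.66% and 8.81%. POX05629 (Zn2Cys6) rose to 18.46, 18.52 and 18.06 FPKM on WB, against 7.85, 5.53 and 4.04 FPKM on NC, and POX05623 rose by 1.33 ± 0.14 (limma adjusted p = 1.54e-04). POX00241 stayed low, at 1.92, 1.81 and 2.27 FPKM on WB, against 15.21, 17.96 and 20.22 FPKM on NC, and POX09356 (Zn2Cys6) fell by 1.43 on the log2 scale. At 24 h 6 were higher and 5 lower, beside 5.80% and 11.1% of all genes, and after rescaling 7 and 3, beside 7.72% and 6.88%. Without NC replicate 3, whose wording gives another time, the counts at 24 h were 7 and 5.

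At 24 h POX04637 had 33.83, 31.33 and 31.04 FPKM on WB, against 10, 7.31 and 8.43 FPKM on NC (1.80 ± 0.12, limma adjusted p = 1.14e-05). POX07938 had 469.88, 222.28 and 374.18 FPKM on WB, against 160.73, 66.7 and 182.5 FPKM on NC, with a difference of 1.43 that was 0.98 without NC replicate 2. POX06701 is annotated as TFIIS, an elongation factor of RNA polymerase II. Beside a TFIIS-type zinc finger it carries domains of RNA polymerase subunits, so it may be such a subunit instead. POX06701 had 92.84, 77.4 and 85.97 FPKM on WB, against 42.52, 36.87 and 47.09 FPKM on NC (1.00 ± 0.11, limma adjusted p = 1.20e-04). POX03181 (Zn2Cys6) and POX05726 (C2H2) fell by 1.49 and by 1.48.

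At 48 h 4 members were higher on WB than on NC and 7 lower, beside 4.50% and 6.36% of all genes. POX00975 had 92.47, 106.86 and 117.47 FPKM on WB, against 33.95, 29.34 and 27.78 FPKM on NC (1.76 ± 0.11, limma adjusted p = 3.39e-05). POX00241 was now higher, with 14.05, 18.72 and 19.68 FPKM on WB, against 8.78, 6.03 and 8.42 FPKM on NC (1.08), a difference that went to 0.99 without WB replicate 3 and to 0.93 without NC replicate 2. The falls included the O-methyltransferase-type genes POX04227, with 1.22, 0.28 and 0.89 FPKM on WB, against 45.87, 48.42 and 41.01 FPKM on NC, and POX09469, with 10.16, 8.4 and 7.92 FPKM on WB, against 147.18, 168.77 and 126.61 FPKM on NC.

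On GLU at 4 h 14 members were lower than on NC and 5 higher, beside 17.5% and 7.78% of all genes and 31.6% and 5.26% of the other TF genes. POX04833 (Zn2Cys6) had 1.46, 1.18 and 1.42 FPKM on GLU, against 8.31, 10.96 and 20.07 FPKM on NC (−2.50 ± 0.29, limma adjusted p = 3.55e-04), and POX00241 fell by 2.08. Among the rises was POX08702, an O-methyltransferase-type gene, with 146.55, 146.05 and 191.34 FPKM on GLU, against 45.32, 64.07 and 51.09 FPKM on NC (1.58 ± 0.16, limma adjusted p = 2.27e-04). POX05629 had 26.82, 27.55 and 30.43 FPKM on GLU, against 9.83, 9.41 and 11.58 FPKM on NC. The Rpc34-like POX02035 had 36.84, 35.1 and 27.29 FPKM on GLU, against 15.3, 13.39 and 9.73 FPKM on NC (1.31 ± 0.19, limma adjusted p = 9.81e-04).

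At 12 h 8 members were lower on GLU and 3 higher, beside 18.4% and 7.52% of all genes, and after rescaling 4 were lower and 6 higher, beside 12.7% and 10.9%. POX01387 (Zn2Cys6) had 54.55, 54.97 and 58.84 FPKM on GLU, against 12.47, 10.2 and 10.14 FPKM on NC (2.26 ± 0.10, limma adjusted p = 1.12e-06). POX06195 had 40.76, 49.81 and 49.26 FPKM on GLU, against 11.87, 12.74 and 12.43 FPKM on NC (1.83 ± 0.10, limma adjusted p = 3.16e-06). POX04833 and POX03181 were lower by −2.65 and −2.05. CreA (POX07254) was lower on GLU at 4 h, by −1.26 ± 0.08 (limma adjusted p = 2.98e-05), and at 12 h, by −1.66 ± 0.09 (limma adjusted p = 4.33e-06). At 24 and 48 h its differences of −0.08 ± 0.21 and −0.02 ± 0.18 were not called.

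At 24 h 13 members were lower on GLU and 2 higher, beside 15.0% and 4.93% of all genes, and at 48 h 16 were lower and 1 higher, beside 9.10% and 5.27%. All genes highest on cellulose gave 17.4% lower and 3.79% higher at 24 h, and 15.3% and 3.43% at 48 h. The other TF genes gave 19.6% and 4.78% at 24 h, and 9.57% and 8.61% at 48 h. The 2 higher at 24 h were POX00975, with 106.01, 81.8 and 73.5 FPKM on GLU, against 29.82, 35.73 and 26.87 FPKM on NC, and POX01387, with 12.91, 27.78 and 20.09 FPKM on GLU, against 8.18, 7.77 and 8.79 FPKM on NC (1.14, and 0.89 without GLU replicate 2). POX03181 had 2.06, 2.15 and 2.61 FPKM on GLU, against 24.39, 32.67 and 26.22 FPKM on NC (−3.13 ± 0.17, limma adjusted p = 1.76e-05). POX02682, the Myb member, was alone in being higher on GLU at 48 h, with 102.21, 99.06 and 107.8 FPKM on GLU, against 43.48, 50.23 and 46.53 FPKM on NC (1.12 ± 0.07, limma adjusted p = 1.48e-05). It was also higher on WB at 48 h, by 1.07 ± 0.09 (limma adjusted p = 1.34e-04). POX09516, highest on AV at 48 h, had 8.72, 8.74 and 8.46 FPKM on GLU at 48 h, against 75.23, 45.99 and 57.16 FPKM on NC (−2.62 ± 0.16, limma adjusted p = 1.54e-05).

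**Figure D4:**
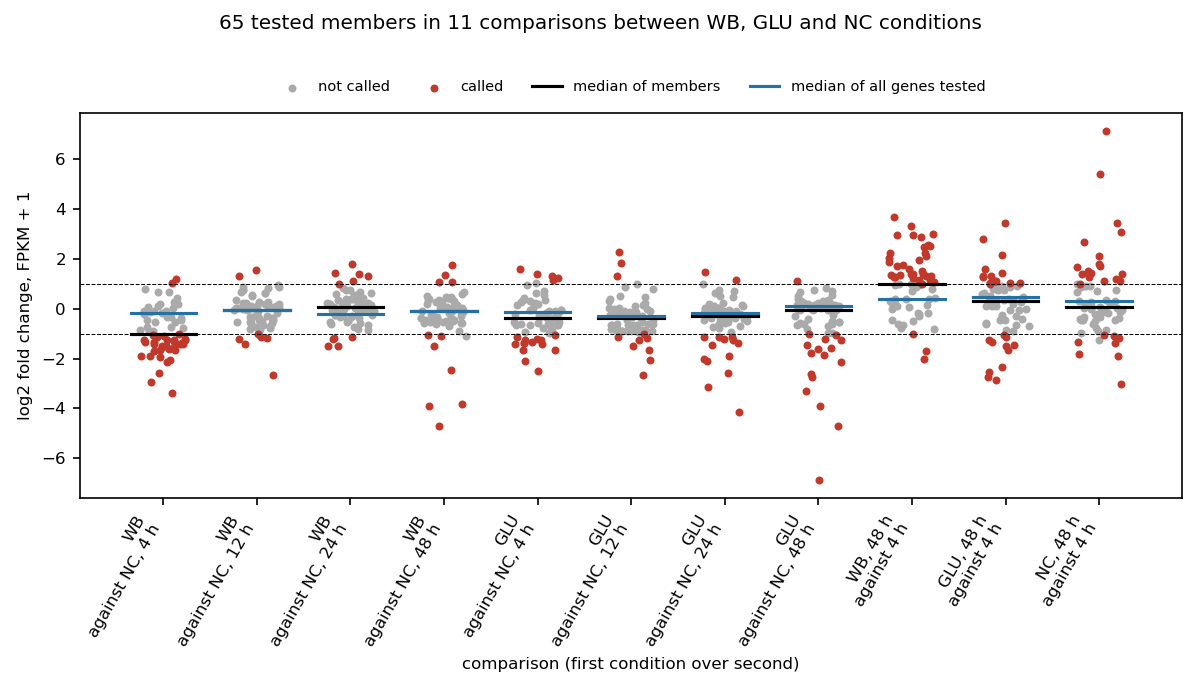
Log2 fold change of FPKM + 1 for the 65 tested members (points, red where called) in the 11 comparisons, the first condition over the second, with the median of the members (black) and of all 8898 genes (blue). The members' median lay at −1.01 on WB against NC at 4 h and at 1.00 in WB at 48 h against 4 h, where the medians of all genes were −0.17 and 0.40.

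Within one medium, 48 h was compared with 4 h. On WB 33 members were higher at 48 h and 3 lower, beside 33.0% and 15.9% of all genes and 64.1% and 5.26% of the other TF genes. On GLU 14 were higher and 11 lower, beside 30.2% and 7.55% of all genes and 50.2% and 1.91% of the other TF genes. On NC 18 were higher and 8 lower, beside 20.9% and 9.59% of all genes. After rescaling, WB had 24 higher and 6 lower, beside 25.2% and 22.6% of all genes. GLU then had 4 higher and 17 lower, beside 19.2% and 15.2%, so that the balance of the members turned with the scaling. NC had 14 and 11, beside 15.8% and 13.2%.

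The HMG gene POX09187 rose most on WB, with 50.73, 42.29 and 43.67 FPKM at 48 h, against 2.34, 2.4 and 3.33 FPKM at 4 h (3.66 ± 0.14, limma adjusted p = 1.09e-07), and rose by 2.81 ± 0.10 on GLU (limma adjusted p = 7.41e-08). POX03181 rose on WB to 19.67, 17.44 and 16.86 FPKM at 48 h, against 1.08, 0.62 and 1.08 FPKM at 4 h. POX04833 rose on GLU to 24.74, 22.36 and 25.77 FPKM at 48 h, against 1.46, 1.18 and 1.42 FPKM at 4 h (3.43 ± 0.09, limma adjusted p = 1.86e-08). POX08009, the MAT alpha 1 gene, was called higher at 48 h in all 3 media at low levels, with 2.66, 1.69 and 1.78 FPKM at 48 h, against 0.51, 0.66 and 0.36 FPKM at 4 h on WB. POX04171, the VID21-related gene, rose on WB by 1.41 ± 0.19 (limma adjusted p = 1.49e-04).

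Before rescaling, falls with time were fewer than rises in each medium. POX01387 had 7.14, 7.58 and 7.72 FPKM at 48 h on WB, against 22.24, 21.87 and 39.09 FPKM at 4 h, and 6.13, 7.7 and 7.97 FPKM at 48 h on NC, against 32.61, 27.33 and 29.96 FPKM at 4 h. POX09252 (Zn2Cys6) had 0.57, 1.04 and 0.66 FPKM at 48 h on WB, against 5.43, 6.63 and 6.15 FPKM at 4 h. The strongly expressed POX07938 had 38.54, 37.26 and 32.75 FPKM at 48 h on GLU, against 278.16, 301.81 and 237.18 FPKM at 4 h (−2.87 ± 0.10, limma adjusted p = 5.45e-08). POX05629 fell on GLU by 2.73, and POX06396 fell on NC to 36.23, 59.32 and 82.13 FPKM at 48 h, against 722.29, 593.17 and 224.31 FPKM at 4 h (−3.01 ± 0.48, limma adjusted p = 0.00136).

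High late levels on AV, MC, HEC and NC beside low ones on GLU were shared by several members of different classes. POX09469 had 147.18, 168.77 and 126.61 FPKM on NC at 48 h and was listed at 0, 0.05 and 0.11 FPKM on NC at 4 h (log2 difference 7.13 ± 0.14, limma adjusted p = 7.84e-08). On AV at 48 h it had 218.11, 195.99 and 208.92 FPKM, on HEC at 48 h 233.64, 204.73 and 196.28 FPKM, and on MC it was highest already at 24 h, with 229.72, 255.64 and 236.26 FPKM. On GLU at 48 h it had 0.19, 0.12 and 0.44 FPKM. POX04227 had 56.29, 38.03 and 47.02 FPKM on HEC at 48 h and 0.84, 0.84 and 0.67 FPKM on GLU at 48 h, against 45.87, 48.42 and 41.01 FPKM on NC at 48 h, so that HEC and NC overlapped and GLU lay far below. On NC at 4 h it was listed at 0.11, 0 and 0.11 FPKM. POX08702 had 813.54, 685.36 and 760.86 FPKM on AV at 48 h and 61.27, 55.24 and 57.22 FPKM on GLU at 48 h, against 563.39, 635.55 and 547.12 FPKM on NC at 48 h, and none of these groups overlapped. The C2H2 gene POX05726 had 378.67, 385.99 and 398.09 FPKM on HEC at 48 h and 26.5, 23.63 and 28.77 FPKM on WB at 48 h, against 414.3, 383.6 and 351 FPKM on NC at 48 h, where HEC and NC overlapped.

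Genes of conidiation, the formation of asexual spores, moved in the same libraries. Of 12 listed conidiation genes, 11 were higher on NC at 48 h than at 4 h, with a summed level of 27767.2, 18830 and 24487.9 FPKM at 48 h, against 283.85, 277.64 and 272.53 FPKM at 4 h. On WB 10 of the 12 were higher at 48 h, with a sum of 10063.8, 10234.5 and 9850.63 FPKM at 48 h, against 142.82, 136.17 and 158.17 FPKM at 4 h. On GLU 6 were higher and 1 lower, with a sum of 8671.17, 8613.57 and 8185.87 FPKM at 48 h, against 231.76, 220.21 and 222.58 FPKM at 4 h. The sums at 48 h were 17934.1, 14146.7 and 17702 FPKM on AV, 9100.42, 7562.45 and 9521.87 FPKM on MC and 23493.4, 18764.9 and 21886.6 FPKM on HEC, so that the summed level overlapped between MC and GLU. At 48 h 10 of the 12 were lower on WB than on NC, and 10 of the 12 lower on GLU than on NC. BrlA, the central regulator of conidiation, had 146.32, 125.22 and 125.68 FPKM on AV, 74.49, 94.44 and 78.91 FPKM on MC and 155.02, 121.75 and 147.36 FPKM on HEC at 48 h, while WB libraries had 4.12 to 4.92 FPKM and GLU libraries 3.2 to 4.32 FPKM, against 177.47, 120.54 and 117.68 FPKM on NC, so that BrlA, unlike the sum, set MC apart from GLU. AbaA, which acts after BrlA, had 3.72 to 5.33 FPKM on WB and GLU at 48 h, against 21.43 to 30.3 FPKM on NC. The sum did not rise only late and did not follow BrlA. On NC at 12 h it was already 20723.2, 13237.6 and 13358.3 FPKM, while BrlA had 2.51, 1.14 and 0.93 FPKM. On NC at 24 h it was 7406.27, 6637.27 and 6718.26 FPKM. Few genes can lead it, as the median log2 change of the 12 genes on GLU from 4 h to 48 h was 1.01 and the largest 11.8. The part of conidiation in the late levels of the members was not tested, and a larger share of spore-forming cells cannot be told apart from more RNA per cell in these bulk samples.

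Several members changed direction between early and late times on the same medium. On WB against NC, POX00241 was higher at 48 h (1.08) and lower at 4 h (−2.94), and the difference between these effects was 4.03 ± 0.23 (limma adjusted p = 3.07e-08). On GLU against NC, POX08702 was lower at 48 h (−3.31) and higher at 4 h (1.58), a difference of −4.88 ± 0.19 (limma adjusted p = 3.00e-09). Calls of opposite direction at both times, with this difference past an adjusted p of 0.05 in limma, were found for 3 members on each medium. The same count over all genes was not made, so it is not known whether the members stand apart in this.

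**Figure D5:**
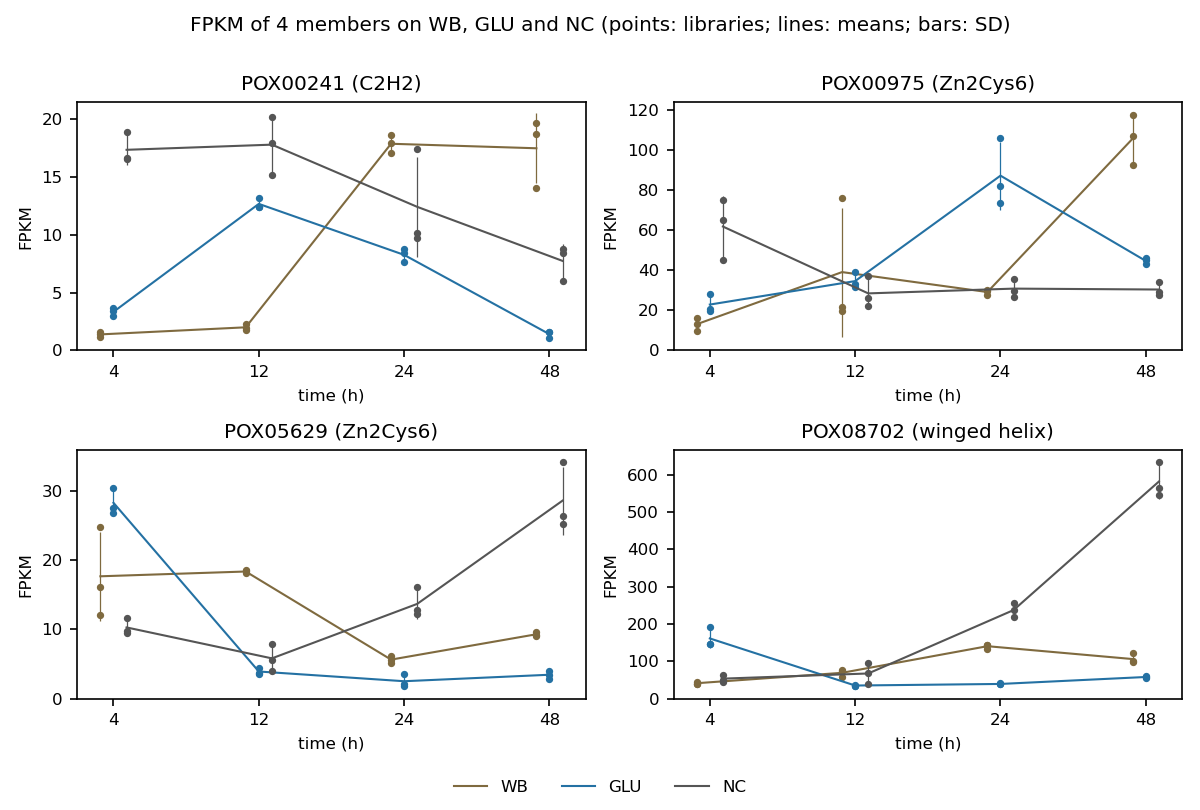
FPKM of POX00241, POX00975, POX05629 and POX08702 on WB, GLU and NC at 4, 12, 24 and 48 h, with points for libraries, lines for means and bars for SD (n = 3). POX00241 and POX00975 were higher on WB than on NC at 48 h and lower at 4 h, and POX05629 and POX08702 were lower on GLU than on NC at 48 h and higher at 4 h.

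The wider pathway gave a frame for these levels. All 10 listed cellulase and xylanase genes were at least 2-fold higher than NC on AV and MC at every time, and on HEC 10, 10, 9 and 10 of them were at 4, 12, 24 and 48 h. On WB 6 of these enzyme genes were called higher than on NC at 4 h and all 10 at 12, 24 and 48 h, so their rise was not confined to the cellulose media. Their summed share of FPKM on MC at 48 h averaged 10.2%, against 0.00939% on NC at 48 h, so that the enzyme genes differed between media far more than most of the TF members. Of 10 listed regulators of the pathway, among them ClrB, XlnR, AmyR, CxrA and CreA, 2 were higher and 5 lower on WB than on NC at 4 h, and 1 was higher and 3 lower on GLU than on NC at 4 h. Later on GLU, 3 were lower than on NC at 12 h and 4 at 24 h.

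Across the 24 condition means, the members' log2 levels correlated with the mean of the 10 enzyme genes at a median r of 0.21 (range −0.38 to 0.63), which is a description over conditions that share libraries, pre-culture and times. Of the 66 members, 10 had r above 0.5 (15.2%, against 3.02% of all genes), a comparison that the choice of genes highest on cellulose enters, and 16 lay below 0. POX05623 was most like the enzyme genes (0.63), followed by POX06095 and POX04637 (both 0.60), and CreA (POX07254) had 0.59. POX08367, with the fungal TF domain alone and highest on AV at 24 h, was least like them (−0.38). The order holds on the log scale. Without the log POX06095 (0.68) and POX05408 (0.66) led, while POX05623 had 0.34 and POX04637 0.25, and 6 members lay above 0.5, against 2.57% of all genes. After rescaling, 16 members lay above 0.5, against 5.27% of all genes.

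Among the 2145 pairs of members the median r was 0.19, with 420 pairs above 0.5 and 60 below −0.5. The late genes POX04860 (homeobox) and POX09469 had r = 0.94, POX08702 and POX09469 had 0.92, and POX04227 and POX05726 had 0.91. POX02554 (Zn2Cys6) and POX04023 (C2H2), both highest on AV at 12 h, had 0.93, with and without AV replicate 1 at 12 h. The most opposed pair was POX01387, high early on MC and GLU, and POX03181, which was high late (−0.80).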

How the data were processed

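RNA-seq libraries of P. oxalicum ΔPoxKu70 were deposited as 1 table of gene levels per library. The authors mapped reads to the HP7-1 genome with HISAT and to its genes with Bowtie2, and computed FPKM with RSEM 1.2.12. The submitters' processing notes name BWA 0.7.10-r789, Bowtie2 2.1.0 and DESeq2 without their roles. The deposited FPKM values hold no read counts. Steps in the values of 348 weak genes gave relative depths of 0.643 to 1.08. The study reports the total of clean reads over its transcriptomes, but the depth of each library is not known here.

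Groups followed the short names in the labels. limma 3.58.1 (R 4.3.3) was fitted with a trend on log2(FPKM + 1) for each pair of conditions, over the 8898 genes averaging 1 FPKM or more, after it was tested on simulated data. Calls took an unadjusted p of at most 0.05 and 2-fold, with Benjamini-Hochberg adjustment over all genes. Tables were handled in Python 3.11.15 with pandas 2.3.3. The difference between 48 h and 4 h effects was fitted on 12 libraries. The study calls the libraries of a condition biological replicates, but the sources used here do not say whether they were separate cultures, so p-values measure only the spread between these libraries. The alternatives were another pseudocount (0.1), other filters, rescaling by the median of ratios (8509 genes), a replicate block and leaving out single libraries.

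The members and lists were chosen with earlier results of these data known. Named genes were the 5 members of widest margin per cellulose substrate, those with a protein name, the 2 largest rises and falls without overlap in each tested comparison, the 2 highest, the 2 nearest the minimum, and those most and least like the enzyme genes. Other members named were chosen after their values were seen.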

Additional observations from a re-analysis of the deposited data

Results flagged for a closer look

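Of the members, 6 had effects of opposite direction at 48 h and at 4 h against NC, both called. The difference between the effects was itself tested in 1 limma fit on 12 libraries per medium. How many of all genes did the same was not counted. On WB the difference (48 h minus 4 h, log2) was 4.03 for POX00241, 3.92 for POX00975 and 3.93 for POX09083, with limma adjusted p-values of 3.07e-08, 2.16e-07 and 4.79e-05. All 3 were higher on WB than on NC at 48 h and lower at 4 h, although the WB and NC libraries of POX09083 overlapped at 48 h. On GLU the difference was −2.71 for POX03959, −4.11 for POX05629 and −4.88 for POX08702, with limma adjusted p-values of 0.0018, 1.01e-08 and 3.00e-09. These 3 were lower on GLU than on NC at 48 h and higher at 4 h. POX03959 was weak at 4 h, with 2.05, 1.88 and 0.97 FPKM on GLU, against 0, 0.18 and 0.09 FPKM on NC. At 48 h it had 0.53, 0 and 0.28 FPKM on GLU, against 6.38, 0.78 and 2.13 FPKM on NC, a difference of −1.46 that rested on single libraries. It was −0.92 without NC replicate 1, under 2-fold, and it was no longer called without GLU replicate 2 (−1.30) or GLU replicate 3 (−1.48). POX00241 on WB at 48 h went under 2-fold without WB replicate 3 (0.99) or NC replicate 2 (0.93), and the other effects of these 6 members kept their call with any 1 library left out. For POX09083 on WB at 48 h that call held only by the unadjusted p. Its limma adjusted p was 0.0317 with all libraries. It was 0.105 without WB replicate 2, 0.0974 without WB replicate 3, 0.0809 without NC replicate 1 and 0.0798 without NC replicate 3.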

How the results depend on the processing

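No named result reversed in direction, but rescaling turned the balance of the members in 3 comparisons, to 4 higher and 17 lower on GLU at 48 h against 4 h (14 and 11 as reported), 6 and 4 on GLU against NC at 12 h (3 and 8) and 4 and 2 on HEC against NC at 4 h (2 and 5). The members' median at 48 h against 4 h was then −0.14 on GLU (0.31 as reported) and −0.20 on NC (0.09). With a pseudocount of 0.1, the members called on GLU against NC at 12 h numbered 18, against 11 as reported, and those past 2-fold on MC against NC at 12 h numbered 14, against 9. After rescaling, MC against NC at 48 h gave 15, against 8. AV against NC at 12 h gave 13 without AV replicate 1 alone and 17 when also rescaled, both chosen after seeing the data, against 8. Leaving out 1 replicate number of both media at a time gave 4 to 12 members past 2-fold on AV against NC at 12 h, 8 to 13 on MC at 48 h and 8 to 14 on HEC at 48 h. Leaving out 1 library at a time left 32 to 35 called on WB against NC at 4 h, 10 to 16 on GLU at 12 h and 23 to 31 on NC at 48 h against 4 h. Of 516 alternatives for 43 named results, 509 kept their call and 7 fell just under 2-fold.

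The replicate numbers do not pair the samples. Deviations of same-numbered libraries correlated between −0.37 and 0.27, and a fit with the replicate block left the members called unchanged at 35 on WB at 4 h, with 12 in place of 11 on WB at 48 h. The median correlation with the enzyme genes was 0.0935 without the log, 0.32 after rescaling and 0.22 without MC at 48 h. FPKM hides the depth, so precision at levels near 1 FPKM is not known.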

Other observations

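The set itself shifted with the scaling and the libraries used. Rescaling by the median of ratios found 93 genes, 62 of them among the 66 members (93.9% of the members and 66.7% of the genes found). The median of the 3 libraries found 66, of which 58 were members. Leaving out 1 replicate number gave between 63 and 71 genes, and 1 replicate number alone gave between 65 and 76. Across these settings 39 members were always found, among them CreA (POX07254), POX07938 and POX06396. Without AV at 12 h replicate 1, chosen after seeing the data, 69 genes were found and all 66 members stayed.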
